A study of Mus musculus with 26 samples.

Results

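The genes described here encode the core of protein phosphatase 2A (PP2A) and its B55 regulatory subunits, as read by bulk RNA sequencing in the left ventricles of 26 mice. They are the 8 genes Ppp2ca and Ppp2cb (catalytic subunits), Ppp2r1a and Ppp2r1b (scaffold subunits), and Ppp2r2a, Ppp2r2b, Ppp2r2c and Ppp2r2d (B55 subunits), chosen by name out of 56941 genes listed. Of these 8 genes, 6 were abundant enough to be tested, and Ppp2r2b and Ppp2r2c were not. The males comprised 6 controls and 7 knockouts, and the females likewise 6 and 7, which makes 4 groups. All of them carried floxed Ppp2r2a on both alleles. The knockout mice (cKO, aMHC-CreTg/0-Ppp2r2aL/L) also carried Cre under the cardiomyocyte promoter αMHC, and the controls (Ctrl, aMHC-Cre0/0-Ppp2r2aL/L) did not. Every mouse was 12 to 16 weeks old and had received saline from an osmotic minipump for 2 weeks. The strain label is C57BL/6N, while the protocols name C57BL6/N for the floxed line and FVB for the Cre line. Mice with Cre and unfloxed Ppp2r2a were not analysed here, so Cre and the loss of Ppp2r2a cannot be told apart. The series title names sex differences as a question, which the design addresses by the genotype effect in each sex and by the difference between these effects.

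PP2A is a serine/threonine phosphatase that works as a complex of a scaffold (A), a catalytic (C) and a regulatory (B) subunit. The catalytic and the scaffold subunit each come in an α and a β form from separate genes. The regulatory subunit decides which proteins the complex acts on and where in the cell it does so, and the B55 subunits form one of its families. Ppp2r2a encodes B55α, Ppp2r2b encodes B55β, Ppp2r2c encodes B55γ and Ppp2r2d encodes B55δ. B55β and B55γ are known chiefly from the brain, while B55α and B55δ are made in many tissues. In the heart, PP2A removes phosphate from ion channels and proteins of calcium handling and contraction.

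Because these genes are paralogs, the stretches where they are most alike bear on how far reads can be assigned to one of them. The coding sequences of Ppp2ca and Ppp2cb were identical at 81.7% of 927 aligned bases, and the longest run they shared was 25 bases. For Ppp2r2a and Ppp2r2d the identity was 77.6% and the longest run shared by the transcripts was 18 bases. Ppp2r1a and Ppp2r1b were identical at 76.8% of aligned bases, with a longest shared run of 23 bases. The most alike 90 bases of both catalytic genes, bases 160 to 249 of each coding sequence, are shown 5′ to 3′ from GENCODE M21 transcripts (build GRCm38), with the 13 bases that differ in capitals.
Ppp2ca: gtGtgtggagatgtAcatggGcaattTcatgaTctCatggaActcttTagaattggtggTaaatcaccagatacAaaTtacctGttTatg
Ppp2cb: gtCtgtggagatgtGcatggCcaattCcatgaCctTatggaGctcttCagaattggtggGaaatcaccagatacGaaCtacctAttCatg
Even in this stretch 13 of 90 bases separated the genes, and 77 were the same. The corresponding stretch of 3 B55 genes starts at base 204 of the Ppp2r2a coding sequence, base 222 of Ppp2r2d and base 192 of Ppp2r2c, with capitals at the 24 positions that are not the same in all 3.
Ppp2r2a: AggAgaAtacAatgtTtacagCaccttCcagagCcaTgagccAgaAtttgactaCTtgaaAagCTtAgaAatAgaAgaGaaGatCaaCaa
Ppp2r2d: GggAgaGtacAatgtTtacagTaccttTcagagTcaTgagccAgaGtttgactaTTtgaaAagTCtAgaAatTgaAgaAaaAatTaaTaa
Ppp2r2c: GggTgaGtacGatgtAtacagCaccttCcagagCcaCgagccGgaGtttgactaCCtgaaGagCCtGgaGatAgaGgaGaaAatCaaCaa
The length of the reads and the handling of reads with several matches are not given in the sources used here, so how many reads of these genes were dropped or shared was not tested.

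Total counts per library ranged from 14403102 to 30867399, and mitochondrially encoded genes took 13.8% to 19.2% of them. Levels are CPM, counts scaled to a common library total after adjustment by TMM, a method that sets most genes level between libraries. Differences are log2 fold changes from 1 edgeR quasi-likelihood model over all 26 mice, with a gene called at an adjusted p under 0.05 over the 15357 genes tested. The 6 cardiomyocyte markers were all detected and summed (mean ± SD over mice) to 61270 ± 2994 CPM in the 6 Ctrl males against 55506 ± 3476 in the 7 cKO males, and to 64702 ± 4083 in the 6 Ctrl females against 61099 ± 3769 in the 7 cKO females. Of these, 1 was called lower in cKO males, and fold changes were above 0 for 1 of 6 in males and 0 of 6 in females. Markers of fibroblasts summed to 849, 938, 771 and 820 CPM in the same 4 groups. Their fold changes were above 0 for 6 of 6 in each sex, with a median of 0.15 in males and 0.10 in females on the log2 scale. Of these, 0 of 6 were called, the smallest edgeR adjusted p being 0.0553 in males. The part of such shifts in the values below was not tested. The 4 atrial cardiomyocyte markers (Myl7, Myl4, Sln and Nppa), of which 2 were tested, had the largest median fold change of the marker lists in each sex. They summed to 221.6 CPM in Ctrl males (range 87.4 to 423.7) and 490.2 in cKO males (range 125.3 to 737.6), and to 304.6 in Ctrl females (range 178.7 to 509.3) and 511.6 in cKO females (range 325.1 to 856.2). Both tested genes had fold changes above 0 in each sex, with a median on the log2 scale of 0.60 in males and 0.44 in females, and neither was called. Myl7 and Sln were at 0 in all Ctrl females, so the sum there was that of Myl4 and Nppa. Whether the higher sums in cKO mice reflect atrial tissue was not tested.

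The deleted gene, Ppp2r2a (ENSMUSG00000022052), was lower in every cKO mouse than in every Ctrl mouse. Its level in Ctrl males was 24.1 CPM at the lowest, 42.2 at the median and 47.7 at the highest. In cKO males these values were 11.8, 13.95 and 16.2 CPM. Both male groups were therefore separated by a gap, the lowest Ctrl male lying above the highest cKO male. Ctrl females had 36.2 CPM at the lowest, 40.2 at the median and 46.7 at the highest. In cKO females the lowest, median and highest were 9.96, 13.7 and 16.2 CPM, again without overlap. The mean left in the knockout was 37.8% of Ctrl in males and 33.3% in females. The log2 fold change was -1.40 (SE 0.14, 95% interval -1.68 to -1.12, edgeR adjusted p = 1.86e-06) in males and -1.58 (SE 0.14, 95% interval -1.87 to -1.30, edgeR adjusted p = 1.9e-07) in females. Bulk tissue holds cells that αMHC-Cre does not target, and fewer cells of a type cannot be told apart from less RNA per cell. The labels do not say which exons are floxed, so reads of a shortened transcript cannot be told apart from those of the intact one.

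Spread among the Ctrl males was the widest of any group for this gene. The coefficient of variation of Ppp2r2a was 27.2% in Ctrl males against 8.91% in Ctrl females, 12.8% in cKO males and 15.4% in cKO females, where counting error alone gives between 3.28% and 6.30%. Ctrl male 3 had 24.9 CPM and Ctrl male 6 had 24.1 CPM, while the other 4 Ctrl males had 41.9 to 47.7 CPM. Those 2 mice thus lay between the knockout range and that of the remaining controls. Their other PP2A genes were not low together. Ppp2r2d was at 37.1 and 35.9 CPM in them, inside the 34.7 to 38.2 CPM of the other 4, and Ppp2ca was at 227.8 and 207.5 CPM, inside 199.97 to 232.7. Ppp2r1b, at 7.03 CPM in mouse 3 and 5.06 in mouse 6, marked the highest and the lowest of the Ctrl males, so these mice did not share a direction there. With both mice left out, the male log2 fold change of Ppp2r2a became -1.63. The difference between the sexes in the knockout effect on Ppp2r2a was -0.18 (SE 0.19, 95% interval -0.58 to 0.22, edgeR adjusted p = 0.999), and without these mice it was 0.05. No sex difference in the size of the loss was therefore detectable, and the interval leaves room for one of 0.58 in log2 units.

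**Figure D1:**
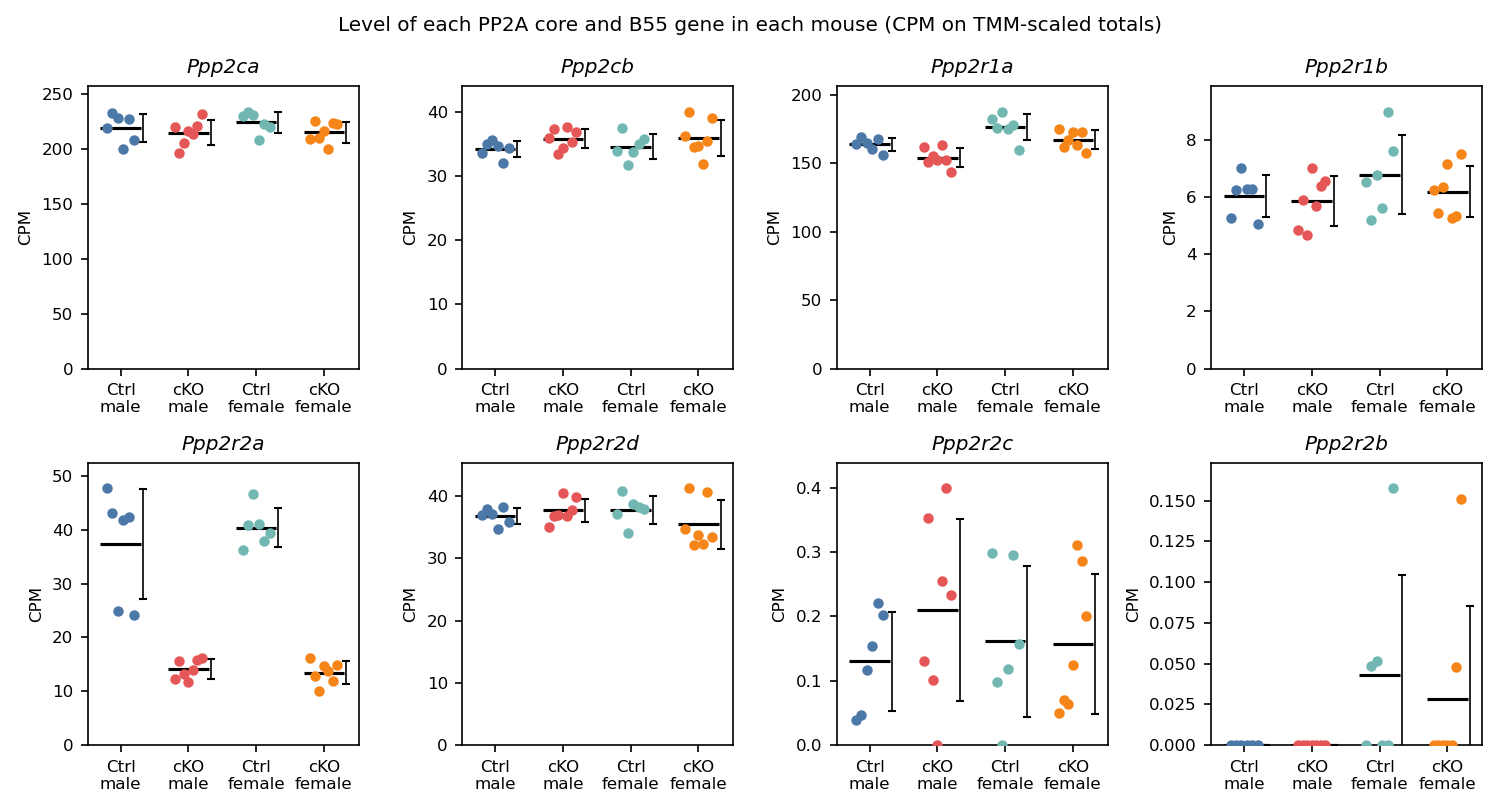
CPM of each gene in each mouse, 1 panel per gene with its own linear axis from 0; points are mice, horizontal lines are group means and the bars beside them are SDs, cut at 0. Among these genes, Ppp2r2a alone separates cKO from Ctrl mice without overlap, and Ctrl males 3 and 6 lie at 24.9 and 24.1 CPM between the groups. The share of all genes tested that separate in this way was not counted.

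Among the tested PP2A core and B55 genes, the call was limited to the deleted one. In males 1 of 6 was called, against 0.443% of all genes tested (68 genes, or 7 without Ctrl males 3 and 6). In females 1 of 6 was called, against 0.0326% of all genes. For the mean genotype effect over both sexes 1 of 6 was called, against 1.33% of all genes. Each time it was Ppp2r2a, with a mean effect of -1.49 (SE 0.10, edgeR adjusted p = 2.36e-10). For the difference between the sexes 0 of 6 were called, against 0% of all genes, where edgeR gave 3.96% of genes at an unadjusted p under 0.05. Leaving Ppp2r2a aside, fold changes of the other 5 lay between -0.13 and 0.07 on the log2 scale in both sexes, while the median absolute change over all genes tested was 0.10 in males and 0.07 in females.

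**Figure D2:**
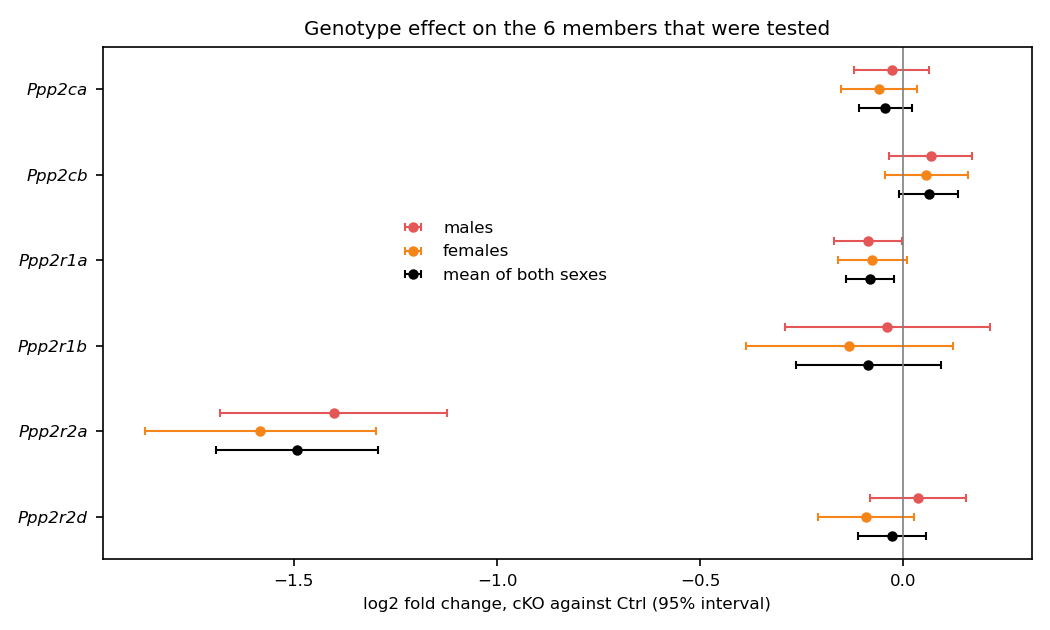
Log2 fold change of cKO against Ctrl (x axis) for the 6 tested genes, in males, in females and as the mean of both; bars are 95% intervals from edgeR. Ppp2r2a lies at -1.40 and -1.58, and the other 5 genes lie between -0.13 and 0.07.

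Ppp2ca, the gene of the α catalytic subunit, had the highest counts of the 8 genes. In Ctrl males its lowest, median and highest levels were 199.97, 222.7 and 232.7 CPM, and in cKO males they were 195.9, 215.9 and 231.6 CPM. Ctrl females had 208.2, 225.8 and 233.6 CPM and cKO females 199.7, 215.9 and 224.7 CPM. The ranges overlapped widely in both sexes. The knockout mean was 98.0% of Ctrl in males and 95.9% in females, with a log2 fold change of -0.03 (SE 0.05, 95% interval -0.12 to 0.06, edgeR adjusted p = 0.843) and -0.06 (SE 0.05, 95% interval -0.15 to 0.03, edgeR adjusted p = 0.975).

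Ppp2cb, which encodes the β catalytic subunit, averaged 34.3 ± 1.26 CPM over the 6 Ctrl males (± SD) and 35.9 ± 1.54 over the 7 cKO males. Its female means were 34.7 ± 1.97 CPM over 6 Ctrl mice and 36.1 ± 2.81 over 7 cKO mice. The extremes were 31.8 and 40.1 CPM over all mice, and the groups overlapped. Its knockout mean was 104.7% and 104.1% of Ctrl in males and females, with log2 fold changes of 0.07 (SE 0.05, 95% interval -0.03 to 0.17, edgeR adjusted p = 0.604) and 0.06 (SE 0.05, 95% interval -0.05 to 0.16, edgeR adjusted p = 0.975). Neither catalytic gene was called, and a shift between them was not tested in itself.

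The scaffold gene Ppp2r1a gave the smallest p after Ppp2r2a. Its lowest, median and highest levels were 156.3, 164.5 and 169.4 CPM in Ctrl males and 143.5, 152.6 and 163.1 CPM in cKO males. In females they were 159.8, 176.7 and 187.8 CPM in Ctrl and 157.5, 167.4 and 175.4 CPM in cKO. All 7 cKO males and all 7 cKO females were below the Ctrl mean of their sex, although the ranges overlapped. How many of all genes tested have such a pattern was not counted. The knockout mean was 94.1% of Ctrl in males and 94.8% in females. On the log2 scale this was -0.09 (SE 0.04, 95% interval -0.17 to -0.00, edgeR adjusted p = 0.351) in males, -0.08 (SE 0.04, edgeR adjusted p = 0.948) in females and -0.08 (SE 0.03, 95% interval -0.14 to -0.02, edgeR adjusted p = 0.155) for the mean of both. Ppp2r1a was therefore not called, and the interval of the mean effect covers reductions between 0.02 and 0.14 log2 units.

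Ppp2r1b, the β scaffold gene, was the least abundant of the tested members. It had 6.04 ± 0.735 CPM in Ctrl males and 5.88 ± 0.871 in cKO males, and 6.80 ± 1.38 in Ctrl females and 6.19 ± 0.896 in cKO females (SD, n = 6 Ctrl and 7 cKO in each sex). Its effects were -0.04 (SE 0.12, 95% interval -0.29 to 0.21, edgeR adjusted p = 0.930) in males and -0.13 (SE 0.12, 95% interval -0.39 to 0.12, edgeR adjusted p = 0.976) in females. Its intervals were the widest of the tested members apart from those of Ppp2r2a.

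Ppp2r2d, the gene of B55δ, is the B55 gene besides Ppp2r2a with more than traces of counts in this tissue. Its lowest, median and highest levels were 34.7, 37.0 and 38.2 CPM in Ctrl males and 35.1, 37.0 and 40.5 CPM in cKO males. In females they were 34.0, 38.1 and 40.8 CPM in Ctrl and 32.1, 33.7 and 41.3 CPM in cKO. Among cKO females, mice 2 and 6 had 41.3 and 40.6 CPM, and the others had 32.1 to 34.8 CPM. The medians were level in males. Of the cKO mice, 1 of 7 males and 5 of 7 females lay below the Ctrl mean of their sex. The knockout mean was 102.5% of Ctrl in males and 93.8% in females. Fold changes were 0.04 (SE 0.06, 95% interval -0.08 to 0.15, edgeR adjusted p = 0.848) and -0.09 (SE 0.06, 95% interval -0.21 to 0.02, edgeR adjusted p = 0.962). Their difference was -0.13 (SE 0.08, 95% interval -0.30 to 0.04, edgeR adjusted p = 0.999).

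The brain-type B55 genes were near the limit of detection. Ppp2r2c, which encodes B55γ, gave 94 counts in all, in 24 of 26 libraries and at most 9 in 1 library. Its mean levels were 0.130 CPM in Ctrl males, 0.210 in cKO males, 0.161 in Ctrl females and 0.158 in cKO females. The groups overlapped, and with no filter on low counts edgeR gave it an adjusted p of 0.662 in males. Ppp2r2b, which encodes B55β, gave 9 counts in all, in 5 of 26 libraries. It had 0 counts in all 13 males, which allows up to 0.0202 CPM over the Ctrl males and 0.0193 CPM over the cKO males at 3 counts per group, for counting error only. Females had 5 counts in Ctrl and 4 in cKO. A rise of either gene to the level of Ppp2r2a was not seen in any cKO mouse, the highest values being 0.399 CPM for Ppp2r2c and 0.151 for Ppp2r2b.

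Levels between genes are compared per length, as CPM per kb of the longest annotated transcript. Over the 12 Ctrl mice Ppp2r1a came first at 70.6 ± 4.04 CPM per kb (SD, n = 12). Ppp2ca followed at 31.2 ± 1.56 and Ppp2cb at 23.46 ± 1.083. Ppp2r2d at 9.76 ± 0.475 and Ppp2r2a at 9.69 ± 1.85 did not differ beyond their spread, with ranges of 8.90 to 10.7 and 6.01 to 11.9. Ppp2r1b was at 1.76 ± 0.308, Ppp2r2c at 0.0356 and Ppp2r2b at 0.0095. Over the 14 cKO mice the order was the same, but Ppp2r2a at 3.44 ± 0.474 (SD, n = 14) no longer overlapped Ppp2r2d at 9.57 ± 0.825, the ranges being 2.48 to 4.05 and 8.40 to 10.8. Ppp2r2a stayed above Ppp2r1b, whose highest cKO value was 2.06.

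Part of this order rests on the choice of length. Ppp2ca has a long transcript of 7102 bases around a coding sequence of 927 bases. Per kb of coding sequence it came first, at 238.9 CPM per kb in Ctrl mice against 96.3 for Ppp2r1a. Ppp2r2d has a longest transcript of 3823 bases and a longest coding transcript of 2081 bases. Divided by the second, Ppp2r2d was at 17.9 CPM per kb in Ctrl mice and no longer level with Ppp2r2a at 9.69. Per kb of merged exons or of coding sequence, the mean of Ppp2r2a was above that of Ppp2r2d in Ctrl mice. In cKO mice Ppp2r2a was below Ppp2r2d under each of the 4 lengths. Fold changes between groups do not depend on the length.

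**Figure D3:**
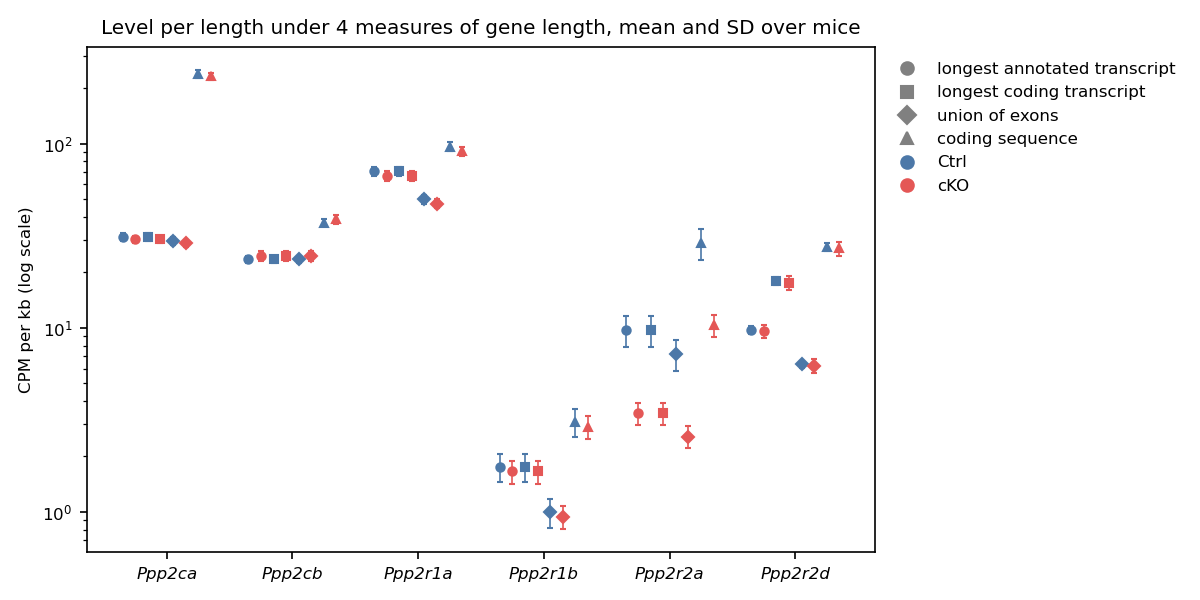
Level per kb on a log axis for the 6 tested genes in 12 Ctrl and 14 cKO mice, mean and SD over mice, under 4 measures of length. Ppp2r1a leads under 3 of the measures and Ppp2ca under the coding sequence, and Ppp2r2a is the gene whose Ctrl and cKO points lie apart.

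Within the scaffold class 1 gene carried nearly all of the length-scaled level, and in the B55 class Ppp2r2a and Ppp2r2d together did. The catalytic level was shared by Ppp2ca and Ppp2cb. Ppp2r1a made up 97.6% of the scaffold level in Ctrl males, 97.5% in cKO males, 97.5% in Ctrl females and 97.6% in cKO females. Ppp2ca made up 56.9% ± 1.77 of the catalytic level in Ctrl and 55.3% ± 1.68 in cKO males (SD, n = 6 and 7). In females its share was 57.2% ± 1.66 in Ctrl and 55.2% ± 1.22 in cKO (SD, n = 6 and 7). The shares of the groups overlapped in both sexes. This near-even split depends on length, since per coding length Ppp2ca made up 86.4% in Ctrl males, 85.6% in cKO males, 86.6% in Ctrl females and 85.6% in cKO females. The catalytic sum was 54.2 ± 1.96, 54.6 ± 1.96, 55.1 ± 1.99 and 54.8 ± 3.07 CPM per kb (SD) over the Ctrl and cKO males and the Ctrl and cKO females in turn (n = 6, 7, 6 and 7), so the groups differed by less than their SDs. The scaffold sum was 69.6 ± 2.10 in Ctrl males and 65.6 ± 2.64 in cKO males, and 75.1 ± 3.89 in Ctrl females and 71.2 ± 2.73 in cKO females (SD), with overlapping ranges in each sex.

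The B55 class shifted from an even split to a majority of Ppp2r2d. Ppp2r2a made up 48.3% ± 7.33 of the B55 level in Ctrl males (SD, n = 6, range 38.9% to 55.1%) and 26.2% ± 2.45 in cKO males (SD, n = 7, range 21.7% to 28.6%). In females it made up 50.3% ± 3.22 in Ctrl (SD, n = 6, range 48.0% to 56.6%) and 26.5% ± 3.82 in cKO (SD, n = 7, range 21.7% to 30.7%). Neither sex had an overlap. The ratio of Ppp2r2d to Ppp2r2a was 1.11 in Ctrl males and 2.84 in cKO males, and 0.990 and 2.83 in females. These shares follow from the loss of the deleted gene and are given as a description. They depend on length, since with the longest coding transcript Ppp2r2a made up 34.0% in Ctrl males and 16.2% in cKO males, and 35.6% and 16.5% in females.

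The summed B55 level was lower in every cKO mouse than in every Ctrl mouse of the same sex, and the other 3 B55 genes together did not make up the difference. It was 19.0 ± 2.63 CPM per kb in Ctrl males (SD, n = 6, range 15.4 to 21.6) and 13.4 ± 0.718 in cKO males (SD, n = 7, range 12.3 to 14.5). In females it was 20.0 ± 0.763 in Ctrl (SD, n = 6, range 18.8 to 20.9) and 12.7 ± 1.07 in cKO (SD, n = 7, range 10.9 to 14.03). The cKO mean was 70.8% of Ctrl in males, or 65.2% without Ctrl males 3 and 6, and 63.4% in females. Set against the catalytic sum, the B55 level was 35.1% in Ctrl males and 24.6% in cKO males, and 36.3% and 23.1% in females. This percentage depends on length, being 20.2% in Ctrl males per coding length, 25.2% with merged exons and 50.0% with the longest coding transcript, and it was lower in cKO than in Ctrl means of both sexes under each of these.

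Without Ppp2r2a, the other B55 genes summed to 9.66 ± 0.341 CPM per kb in Ctrl against 9.92 ± 0.483 in cKO males (SD, n = 6 and 7). In females the sums were 9.95 ± 0.588 (SD, n = 6) and 9.33 ± 1.01 (SD, n = 7). In males the difference of 0.260 CPM per kb amounted to 4.48% of the loss of Ppp2r2a, which fell by 5.79, and to 2.96% without Ctrl males 3 and 6, 7.31% with unscaled library totals and 7.95% with the longest coding transcript. In females it was -0.621 where Ppp2r2a fell by 6.71, so the difference there had the sign of the loss, at -9.25% as a percentage of the loss, -4.87% with unscaled library totals and -16.9% with the longest coding transcript. To equal the loss, the other B55 genes would have had to rise by 0.68 log2 units in males and 0.74 in females. The upper limits of the 95% intervals for Ppp2r2d, which is nearly all of that sum, were 0.15 and 0.02, a rise of 11.2% and 1.73%. With the longest coding transcript, the rise needed was 0.41 and 0.45, also above those limits. The intervals thus leave out a rise of Ppp2r2d RNA that equals the loss of Ppp2r2a RNA. A rise of up to 11.2% in males remains inside them. They rest on 1 estimate of spread shared by the 4 groups. The SD of Ppp2r2d was 1.32, 1.88 and 2.22 CPM in Ctrl males, cKO males and Ctrl females. In cKO females it was 3.88 CPM, so the shared estimate may understate the spread there. Protein was not measured.

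**Figure D4:**
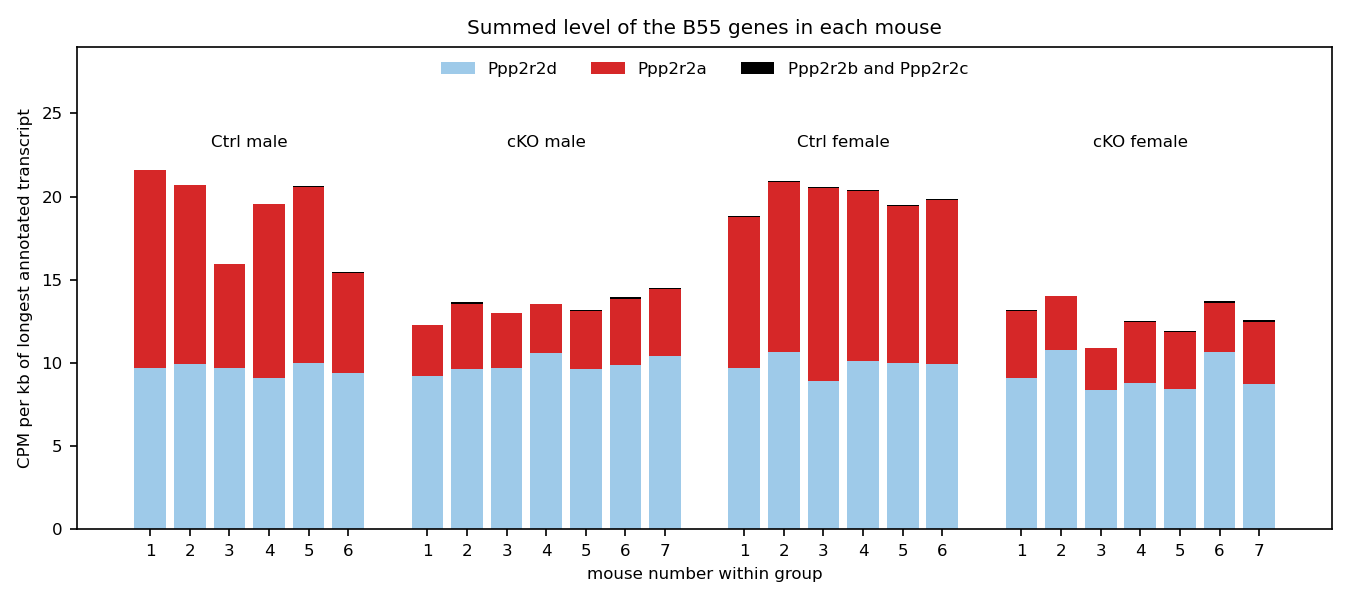
Summed level of the B55 genes in each mouse, in CPM per kb of longest annotated transcript, stacked by gene; bars start at 0 and are numbered within group. The Ppp2r2d part is at 8.40 to 10.8 in cKO mice and 8.90 to 10.7 in Ctrl mice, and the Ppp2r2a part is shorter in every cKO mouse. Among cKO females the Ppp2r2d part is 10.8 and 10.6 in mice 2 and 6 and 8.40 to 9.10 in the others.

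Between females and males, the largest difference among the 6 tested members was that of Ppp2r1b in Ctrl mice. It was higher in females by 0.17 on the log2 scale (SE 0.13, edgeR adjusted p = 0.655), and by 0.07 in cKO mice (SE 0.12). The median absolute difference over all genes tested was 0.09 in Ctrl and 0.10 in cKO mice. In Ctrl mice 0 of 6 members were called between the sexes, against 0.638% of all genes tested. In cKO mice 0 of 6 were called, against 2.7% of all genes. Ppp2r1a was higher in females by 0.11 on the log2 scale in Ctrl mice (SE 0.04, edgeR adjusted p = 0.285) and by 0.12 in cKO mice (SE 0.04, 95% interval 0.04 to 0.20, edgeR adjusted p = 0.0991), and DESeq2 called the second, at an adjusted p of 0.0414. Ppp2r2a differed between females and males by 0.11 in Ctrl mice, or -0.12 without Ctrl males 3 and 6, and by -0.07 in cKO mice. Ppp2r2d differed by 0.04 in Ctrl mice and -0.09 in cKO mice.

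The remaining genes of the phosphatase were described from 3 lists. Over all genes tested, 0.443% were called for genotype in males, 0.0326% in females and 1.33% in the mean. In lists of this size, 0 calls are close to those shares. Of 12 other PP2A regulatory subunits (the B56, B″ and striatin families, which compete with B55 for the core), 11 were tested, and 0 were called for genotype in either sex or in the mean. The pair with the smallest p in the mean effect was Ppp2r5a, a B56 subunit, at -0.09 (edgeR adjusted p = 0.170) and the striatin gene Strn at 0.15 (edgeR adjusted p = 0.530). Of 14 genes for assembly, methylation and inhibition of PP2A, all 14 were tested and 0 were called for genotype. Here the smallest p belonged to Ptpa, the PP2A activator that helps to fold the catalytic site, at -0.10 (edgeR adjusted p = 0.132), and to Tiprl, whose product binds catalytic subunits, at -0.11 (edgeR adjusted p = 0.141). Of 8 related catalytic subunits of other phosphatases, 0 of 8 were called, with Ppp1cc at -0.05 (edgeR adjusted p = 0.401) and Ppp5c at -0.03 (edgeR adjusted p = 0.728). At an unadjusted p under 0.05 in the mean effect edgeR gave 1 of 11, 4 of 14 and 0 of 8 genes of these lists, against 14.1% of all genes tested. In males it gave 0 of 11, 5 of 14 and 0 of 8, against 13.2% of all genes. In females it gave 1 of 11, 0 of 14 and 0 of 8, against 5.15%.

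Between the sexes, 2 genes of these lists were called, both lower in cKO females than in cKO males, where 2.7% of all genes tested were called (414 genes, with 163 to 708 in other settings). Strn3, a striatin that places PP2A in complexes with kinases, had 88.7 ± 5.06 CPM in cKO males and 77.9 ± 3.83 in cKO females (SD, n = 7 each), a log2 difference of -0.19 (edgeR adjusted p = 0.0334). Arpp19, which inhibits PP2A-B55 when phosphorylated, had 73.4 ± 2.78 CPM in cKO males and 66.7 ± 2.19 in cKO females (SD, n = 7 each), a log2 difference of -0.14 (edgeR adjusted p = 0.0360). Whether these sex differences depend on genotype was tested as the interaction, at -0.12 for Strn3 and -0.06 for Arpp19 (edgeR adjusted p = 0.999 for both), so a dependence was not called.

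Genes beside Ppp2r2a on chromosome 14 were examined because a deleted segment can reach its neighbours. The 3 tested genes on each side, by the order of GENCODE M21 (GRCm38), were Gm10032, Dpysl2 and Bnip3l on one and Ebf2, Cdca2 and Kctd9 on the other. None of the 6 was called for genotype by edgeR in males, in females or in the mean effect. Over all genes tested the shares called were 0.443%, 0.0326% and 1.33%, so this count says little about the neighbours. Dpysl2 came closest in the mean effect at 0.21 (edgeR adjusted p = 0.0980), and Bnip3l, the nearest on its side, was at 0.01.

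Similarity across the 26 mice was described by Pearson's r of deviations from group means among 10247 other genes with a mean of at least 5 CPM, which share libraries and depth. Ppp2r2a was not aligned with the other members, its r with Ppp2r2d being -0.02. Its nearest genes were Gm7694 at 0.60, Cc2d1a at 0.59 and Ift52 at 0.58. Ctrl males 3 and 6, at 24.9 and 24.1 CPM against 41.9 to 47.7 in the other Ctrl males, weigh on these values of Ppp2r2a. No r was computed without them. Ppp2r2d lay nearest to Wee1 at 0.72, and its r was 0.44 with Ppp2ca and 0.43 with Ppp2cb. Ppp2ca lay nearest to Zfand2a at 0.74, Ppp2cb to Ndel1 at 0.83, Ppp2r1a to Sars2 at 0.83 and Ppp2r1b to Mrps34 at 0.77. With the group differences kept in, the genes most like Ppp2r2a were Ubxn6 at 0.80, Ndufa9 at 0.78 and Ndufaf6 at 0.77, and those most opposed were Ndnf at -0.76, Ptpn14 at -0.70 and Kmt2d at -0.70. These are the highest and lowest of many genes and are given without a test.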

How the data were processed

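Left ventricle RNA (about 20 mg of tissue, RNA integrity number of at least 7.7) went into stranded poly-A libraries from 500 ng, per the labels. The deposited values are raw counts per gene, whole numbers for each of 26 mice. Per the submitters' processing notes, FastQC 0.74, cutadapt 4.6, STAR 2.7.11a, HTSeq and GRCm39 were used. The annotation release and the strand setting are not given in the sources used here.

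The tests used edgeR 4.0.16 in R 4.3.3 (filterByExpr with a minimum count of 10, TMM, robust quasi-likelihood fits with 1 mean per group), and p-values were adjusted by Benjamini-Hochberg. Each of the 26 mice was a separate sample, and 72 pairs of libraries within groups differed beyond counting noise (chi-square per degree of freedom 7.34 to 36.5). Depth was 14403102 to 30867399 counts. Genes without a name numbered 310. Lengths and sequences came from GENCODE M21 (GRCm38), which matched 98.3% of tested genes. No coordinates are given, since the builds differ. The fit was tested on simulated data.

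The genes named are the 8 members, list genes past the threshold (or else the 2 of smallest p in the mean effect), the 3 tested neighbours on each side of Ppp2r2a, and the most similar genes by r. Fam122a and Fam122b are the file's symbols for Pabir1 and Pabir2, and Ppp2r3b did not match. The members and lists were chosen with earlier results of these data known. Alternatives were DESeq2 1.42.0, limma 3.58.1 voom, other filters, scalings, lengths and sample sets, a replicate block, and each mouse left out. Sequence alignment used Biopython 1.88.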

Additional observations from a re-analysis of the deposited data

Results flagged for a closer look

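The levels of the 8 genes and of 4 class sums were examined in each of the 4 groups, 48 sets of mice in all. By Dixon's ratio, the gap to the next mouse as a share of the range, 1 mouse stood apart in 2 sets. For values with a normal spread chance gives about 5% of sets, so 2 of 48 is not above that share. Both sets were Ppp2r2b in females, whose counts are too low for that rate to hold. Its male groups held only 0 counts and could not be flagged. Ctrl female 6 had 0.158 CPM against 0.0518 in the next mouse of its group. Among cKO females, mouse 7 had 0.151 CPM against 0.0476 in the next. Each of these values is 3 counts, so they lie at the limit of detection.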

How the results depend on the processing

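Ppp2r2a was called in males and females in all 36 settings, with log2 fold changes of -1.63 to -1.32 in males and -1.63 to -1.52 in females. The other members were not called for genotype in any setting. Ppp2r1a in the sex difference of cKO mice was called by DESeq2 alone (0.12), so that 1 member was called there. Without Ctrl males 3 and 6, the Ppp2r2a interaction turned to 0.047 and its sex difference in Ctrl mice to -0.119. The male effect of Ppp2r1b ranged from -0.086 to 0.0082 over the 36 settings and turned sign in 3 fits with 1 mouse left out. The cause of these shifts was not tested.

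Counts of called genes moved most. In males they were 386 with DESeq2, 211 with voom, 31 with no filter, 164 at a mean of at least 5 CPM and 7 without Ctrl males 3 and 6, and 4 to 122 with 1 mouse left out (4 without Ctrl male 5, 122 without Ctrl female 6). In females they were 9 with DESeq2, 2 at 5 CPM and 1 with only the compared groups, and 3 to 7 with 1 mouse left out. For the mean effect they were 525, 325 and 113 with DESeq2, voom and no filter, and 96 to 349 with 1 mouse left out (96 without Ctrl male 5, 349 without Ctrl female 6). For sex in Ctrl they were 253 with DESeq2, 61 with the compared groups and 40 without Ctrl males 3 and 6, and 54 to 125 with 1 mouse left out. For sex in cKO they were 708, 688 and 244 with DESeq2, voom and no filter, and 163 to 548 with 1 mouse left out. Of the 26 mice, 11, 12, 6, 5 and 5 moved these 5 counts by over 1.5 times when left out.

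The replicate block gave 3 called genes in females and changed no call of a member. Deviations of mice with the same number had a mean r of -0.026 in males and 0.118 in females (-0.097 to 0.404), against 0.004 and -0.019 for other pairs. Since 0 of 6 male and 3 of 6 female pairs were over 0.1, not all of them, the numbers were not taken as pairs.

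Shares moved with length. With the longest coding transcript Ppp2r2a was 34.0%, 16.2%, 35.6% and 16.5% of B55 in the male Ctrl, male cKO, female Ctrl and female cKO groups, and the cKO sum was 80.3% of Ctrl in males and 72.3% in females. With merged exons the share was 28.9% in cKO males and 53.7% in Ctrl females. Without Ctrl males 3 and 6 the male B55 sum was 65.2% of Ctrl. In Ctrl mice Ppp2ca was 86.5% of the catalytic level per coding length, and Ppp2r1a was 98.0% of scaffold with merged exons and 96.9% with coding length. Depth limits Ppp2r2b and Ppp2r2c, which were not tested.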
